A study of Sus scrofa with 24 samples.

Results

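PROX1 and CCBE1 are 2 genes of lymphatic growth whose probes were followed through every sample of a pig study of haemodialysis grafts. The 2 genes were chosen with earlier results of these data known. Their probes were found by gene name, or by the gene name in the probe description, and this rule used no measured value. It found 2 probes, 1 for each gene, among the 43603 probes of the array, which carry 6138 gene symbols in all. PROX1 is named as such in the files. The CCBE1 probe carries different numbered loci in the older and the newer annotation in the files. The older describes a collagen and calcium-binding EGF domain protein. The RefSeq gene table names the locus of the newer CCBE1.

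Total RNA came from pigs in which a graft had been placed between an artery and a vein, a model of the narrowing that closes haemodialysis grafts at their venous end. The 3 sites were the venous anastomosis (the junction of graft and vein, here the anastomosis), a vein segment further downstream (the downstream vein), and, for comparison, the external jugular vein (the control). With 4 samples per site taken on day 5 and 4 on day 14 after the graft was placed, there were 6 groups and 24 samples. The labels call the replicates biological but give no strain, age or sex of the pigs, and do not say whether samples that share a number came from the same animal.

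Lymphatic vessels arise from veins. PROX1 is the transcription factor that sets and maintains the identity of lymphatic endothelial cells, and it is also present in the cells of venous and lymphatic valves. CCBE1 is a secreted matrix protein that, with the protease ADAMTS3, activates the growth factor VEGFC, which then acts through its receptor FLT4 on lymphatic endothelium. Loss of either gene stops the formation of lymphatic vessels in mice.

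The parts of both transcripts that were measured are shown because each gene rests on a single 60-base probe. The files place the PROX1 probe from base 1961 of its transcript. The CCBE1 probe starts at base 1220 of its transcript in the older annotation in the files and at base 1184 in the newer, and its first 30 bases are given. The genome position is listed as unmapped in the files, and the sequences were read from the files.
PROX1: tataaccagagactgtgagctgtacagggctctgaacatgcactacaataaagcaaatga
CCBE1: ttttcagagtcccctgctagacatgctgaa

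The samples were hybridised to 16 Agilent arrays of 2 colours. Arrays with the same recorded scan date are called a slide here, which gave 7, and no slide number was read. All control samples were labelled with Cy3 and all anastomosis and downstream samples with Cy5, so dye and site cannot be told apart in a comparison with the control. Within a site the days share a dye, and so do the anastomosis and the downstream vein on a day. Between 56.9% and 80.2% of probes were well above background in a sample, with 56.9% to 73.9% in replicates 1 and 2 and 70.1% to 80.2% in replicates 3 and 4. Both members were well above background in 24 of 24 samples and saturated in 0. The CCBE1 spot was 3.64 to 138 times its local background and the PROX1 spot 1.504 to 10.7 times, so PROX1 was read much closer to background. Levels below are normalised log2 intensities and have no meaning between probes. Differences are log2 values ± SE from limma with n = 4 samples per group, and calls are adjusted p-values under 0.05 over the 33390 features tested. Overlap of groups and the direction of pairs are described for single genes only. Their shares over all features were not counted.

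CCBE1 was high at the anastomosis and low in the control vein at both days. At day 5 its level at the anastomosis was 12.03, 11.55, 11.83 and 12.01 in replicates 1 to 4, against 9.27, 7.98, 8.31 and 8.88 in the control. All 4 anastomosis samples lay above all 4 control samples. The difference was 3.24 ± 0.66, or 9.48-fold, and CCBE1 rose (limma adjusted p = 0.00393). In the 4 pairs of the same number it was 2.76 to 3.57. In this comparison 19.3% of all features were called. With replicates 1 and 2 alone, where only 2 of all features were called, the value was 3.16 and the call was lost (adjusted p = 0.180). It was kept under each of the other 15 alternatives tried.

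At day 14 the CCBE1 level at the anastomosis was 10.38, 10.38, 10.19 and 10.20, against 7.83, 8.60, 8.04 and 7.91 in the control. The groups again did not overlap, and all 4 pairs were higher by 1.78 to 2.56. The difference of 2.19 ± 0.66 (4.57-fold) missed the threshold (limma adjusted p = 0.0520), and 8.78% of all features were called. The SE is shared by all groups and takes in the spread of the downstream samples. Fitted on the control and anastomosis samples alone, the same difference had a SE of 0.15 and passed (adjusted p = 0.0397). That fit called 57 of all features, against 2933 in the fit reported. The CCBE1 difference passed under 10 of 18 alternatives, over which the adjusted p ran from 0.00457 to 0.411. Those alternatives called from 1 to 13717 of all features.

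**Figure D1:**
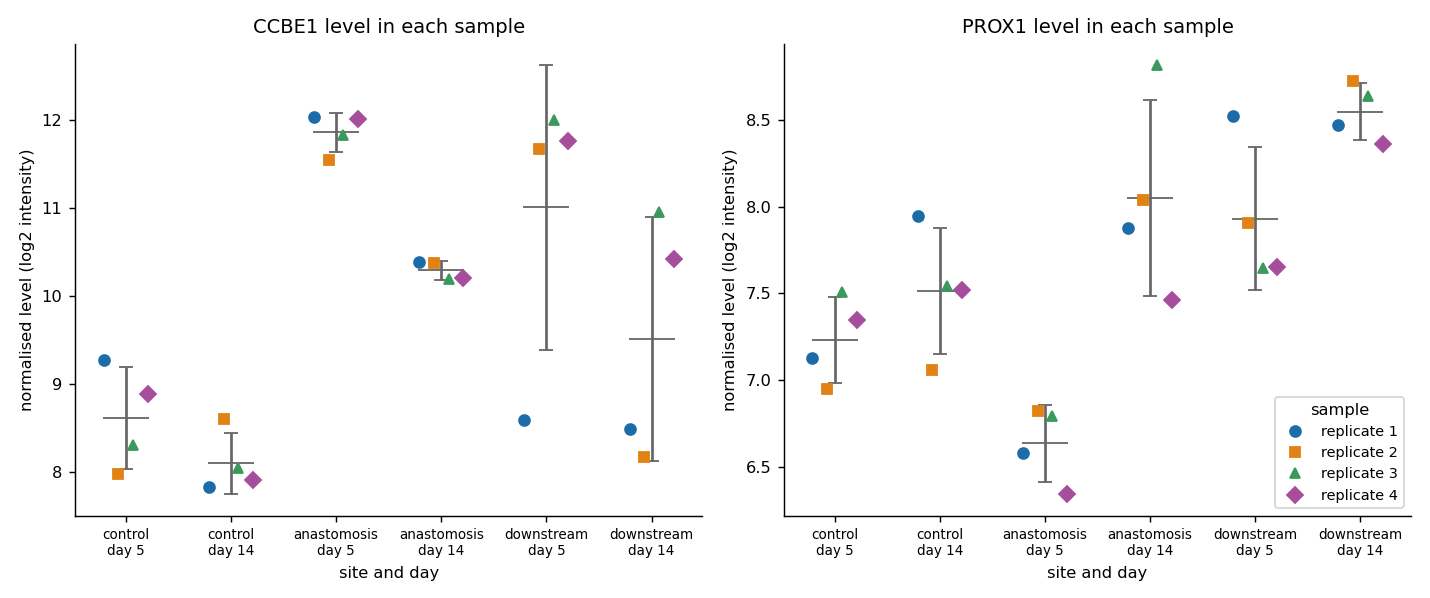
Normalised level (log2 intensity) of CCBE1 and PROX1 in each sample by site and day. Coloured points are replicates 1 to 4, and grey bars are the mean and SD of 4 samples; CCBE1 lies highest at the anastomosis on day 5, and its downstream samples spread from 8.59 to 12.001 on day 5.

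The downstream vein was split. Its CCBE1 levels at day 5 were 8.59, 11.66, 12.001 and 11.75, so that replicate 1 lay within the range of the control and the other 3 within that of the anastomosis. CCBE1 rose by 2.39 ± 0.66 over the control (limma adjusted p = 0.0393), where 8.22% of features were called. It was higher in 3 of 4 pairs, with -0.68 in replicate 1 and 2.87 to 3.69 in the others. Without the downstream sample of replicate 1 the difference was 3.34 (adjusted p = 0.00179). That omission was chosen after seeing the data, so the smaller p-value is a description and no support. The call was lost under 7 of 17 alternatives. Among them were those without replicate 2 (1.96, adjusted p = 0.184), replicate 3 (1.96, adjusted p = 0.244) or replicate 4 (2.23, adjusted p = 0.230), and that with no replicate block (adjusted p = 0.0638). In that order, these fits called 373, 6, 2 and 328 of all features here, against 2743 in the fit reported.

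At day 14 the downstream levels were 8.49, 8.17, 10.95 and 10.42. Replicates 1 and 2 lay near the control and replicates 3 and 4 near the anastomosis. The pair differences from the control were 0.66, -0.43, 2.91 and 2.51. The mean difference of 1.41 ± 0.66 was not called (limma adjusted p = 0.327), and 0.913% of features were. In replicates 3 and 4 alone it was 2.71 (adjusted p = 0.0124), and in replicates 1 and 2 alone 0.12 (adjusted p = 0.989). Of all features 1805 and 0 were called in these fits. Both fits divide the samples along the levels just given, so their p-values are descriptions. Replicates 1 and 2 also differ from 3 and 4 in array brightness and in the recorded protocol name. The part of either in the split was not tested.

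Levels of other marker lists were set beside CCBE1 in the downstream samples. The mean level of 7 macrophage markers was 11.69 in replicate 1 at day 5 against 12.12 to 12.27 in the others. At day 14 it was 11.29 and 10.41 in replicates 1 and 2 against 12.17 and 11.86 in replicates 3 and 4. At day 5 the mean of 9 cell cycle genes was 9.45 in replicate 1 against 10.17 to 10.58, and that of 11 contractile smooth muscle genes 13.87 against 11.92 to 13.19. At day 14 these lists did not split as CCBE1 did: the cell cycle means were 9.31, 8.89, 9.42 and 8.19 in replicates 1 to 4, and the contractile means 13.95, 12.20, 12.80 and 12.96. Adipocyte markers were highest in 3 samples, at 13.95 in the downstream vein of replicate 2, which also had the lowest downstream CCBE1 level, 13.96 at the anastomosis of replicate 3 and 14.68 in the control of replicate 2, all at day 14, against 8.55 to 12.88 in the remaining samples. The mean of 14 skeletal muscle markers split the downstream samples as CCBE1 did, in the other direction. It was 7.19 in replicate 1 at day 5, and 7.10 and 7.53 in replicates 1 and 2 at day 14. In the remaining downstream samples it was 6.77 to 6.95. The part of these lists in the CCBE1 levels was not tested. In such whole-tissue RNA, fewer cells of a type and less RNA per cell cannot be told apart.

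**Figure D2:**
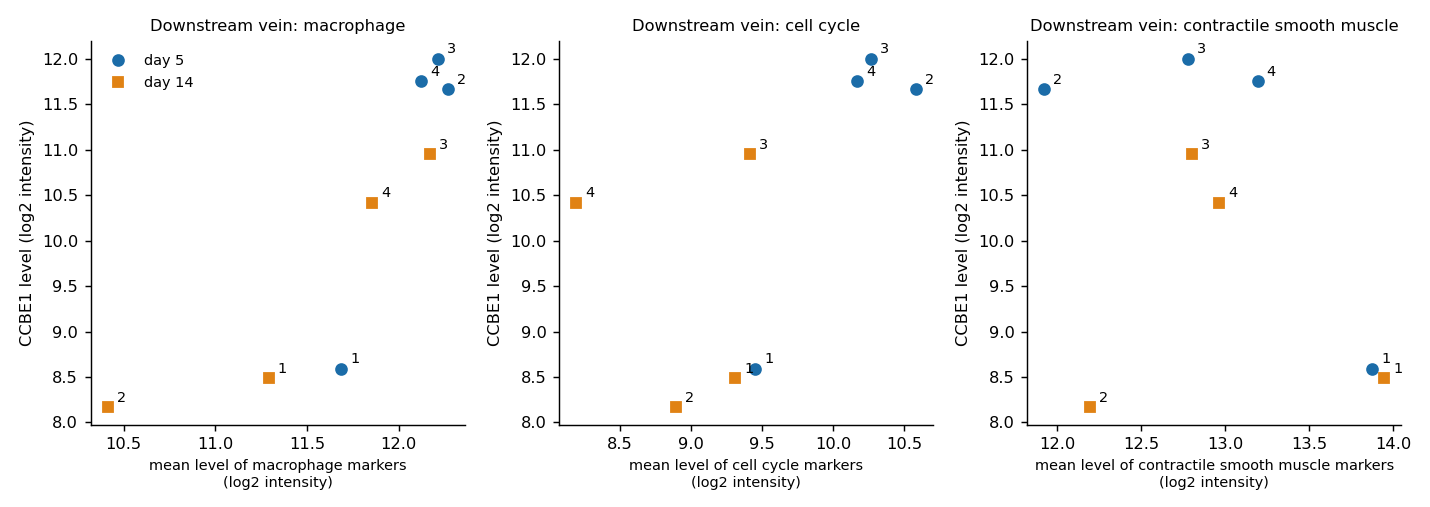
CCBE1 level of each downstream sample (vertical axis, log2 intensity) against the mean level of 3 marker lists (horizontal axis, log2 intensity). Points are single samples labelled with their replicate number, circles for day 5 and squares for day 14. The 3 samples with CCBE1 below 9 also have the 3 lowest macrophage means. They have the 3 highest means of skeletal muscle markers too, a list that is not drawn.

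Between the anastomosis and the downstream vein CCBE1 differed by 0.85 ± 0.66 at day 5 and 0.78 ± 0.66 at day 14 (limma adjusted p = 0.685 and 0.622). The pairs were higher in 2 of 4 and lower in 2 of 4 on each day. Without replicate 1 the day 5 difference was -0.01, and in replicates 3 and 4 alone the day 14 difference was -0.49. In both comparisons 0% of features were called by limma, with 3334 and 4717 at an unadjusted p under 0.05.

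From day 5 to day 14 CCBE1 fell at the anastomosis by 1.57 ± 0.14 on the log2 scale, or 2.96-fold (limma adjusted p = 0.0434), from 11.85 ± 0.22 to 10.29 ± 0.11 (SD, n = 4). The days did not overlap. Only 2 features were called here, 0.00599% of all, the other being an unnamed probe. The call was kept under 2 of 16 alternatives and lost under 14, among them all that left out 1 replicate number (-1.48 to -1.70, adjusted p from 0.200 to 0.454) and the slide as a random block (-1.65, adjusted p = 0.374). Leaving out 1 replicate number called 0 of all features each time, and the slide block called 52. Days lay on different slides in replicates 1 to 3. On the single slide with both days, that of replicate 4, the difference was -1.81.

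The downstream vein had a day difference of -1.49 ± 0.91 and the control -0.52 ± 0.31 (limma adjusted p = 1.00 for both), with overlapping days. In these comparisons 0% of features were called, with 1492 and 642 at an unadjusted p under 0.05. The fall at the anastomosis was not shown to differ from the control: the change of the difference between days was -1.05 ± 0.93 (adjusted p = 0.848), with 0% called and 2780 features at an unadjusted p under 0.05. For the downstream vein against the control it was -0.98 ± 0.93 (adjusted p = 0.828), with 0% called and 2513 unadjusted. For the anastomosis against the downstream vein it was -0.07 ± 0.93 (adjusted p = 0.997), with 0% called and 1385 unadjusted.

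Ordered by mean level, CCBE1 ran from the anastomosis at day 5 (11.85 ± 0.22, SD) through the downstream vein at day 5 (11.002 ± 1.61), the anastomosis at day 14 (10.29 ± 0.11), the downstream vein at day 14 (9.51 ± 1.38) and the control at day 5 (8.61 ± 0.58) to the control at day 14 (8.09 ± 0.35). Every neighbouring pair in this order overlapped.

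PROX1 followed another pattern, and none of its 12 comparisons was called. At day 5 its level at the anastomosis was 6.58, 6.82, 6.80 and 6.34, against 7.13, 6.95, 7.51 and 7.35 in the control and 8.52, 7.90, 7.65 and 7.65 in the downstream vein. The 3 sites did not overlap: the anastomosis was lowest and the downstream vein highest. How many of all features were parted like this was not counted. The anastomosis differed from the control by -0.60 ± 0.24 and was lower in 4 of 4 pairs (limma adjusted p = 0.106). The downstream vein differed by 0.70 ± 0.24 and was higher in 4 of 4 (adjusted p = 0.0891). These comparisons share their control samples, and 10355 and 8382 of 33390 features had an unadjusted limma p under 0.05 in them. The anastomosis differed from the downstream vein by -1.30 ± 0.24 and was lower in 4 of 4 pairs, with pair differences of -1.94 to -0.85. That is the 6th smallest of 33390 p-values (unadjusted p = 1.01e-04), but the adjusted p was 0.424, and in 17 alternatives it was 0.0790 to 1.00.

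At day 14 PROX1 stood at 7.88, 8.04, 8.81 and 7.46 at the anastomosis, at 8.47, 8.72, 8.64 and 8.36 in the downstream vein, and at 7.94, 7.06, 7.54 and 7.52 in the control. All downstream samples lay above all control samples, while the anastomosis overlapped both. The downstream vein was higher than the control by 1.03 ± 0.24 (2.04-fold), in 4 of 4 pairs by 0.52 to 1.67 (limma adjusted p = 0.0641). The anastomosis differed by 0.53 ± 0.24, higher in 2 of 4 pairs (adjusted p = 0.192). Between the anastomosis and the downstream vein the difference was -0.50 ± 0.24 (adjusted p = 0.374).

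Which PROX1 differences passed depended on the scaling. With median centring in place of loess, the downstream vein was called at day 5 (0.85, limma adjusted p = 0.0190) and day 14 (1.38, adjusted p = 0.00194), as was the anastomosis at day 14 (0.88, adjusted p = 0.0104). That scaling shifts the median of all features in comparisons with the control by 0.10 to 0.19. With it 8615, 10133 and 13717 of 33390 features were called in these 3 comparisons, against 2743, 305 and 2933 in the fit reported. With the scanner's processed signals the lower level at the anastomosis at day 5 was called (-1.27, adjusted p = 0.0241). It was also called when fitted on the control and anastomosis samples alone (-0.60, adjusted p = 0.0320). Over all features these fits called 4451 and 9319, against 6454 in the fit reported.

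**Figure D3:**
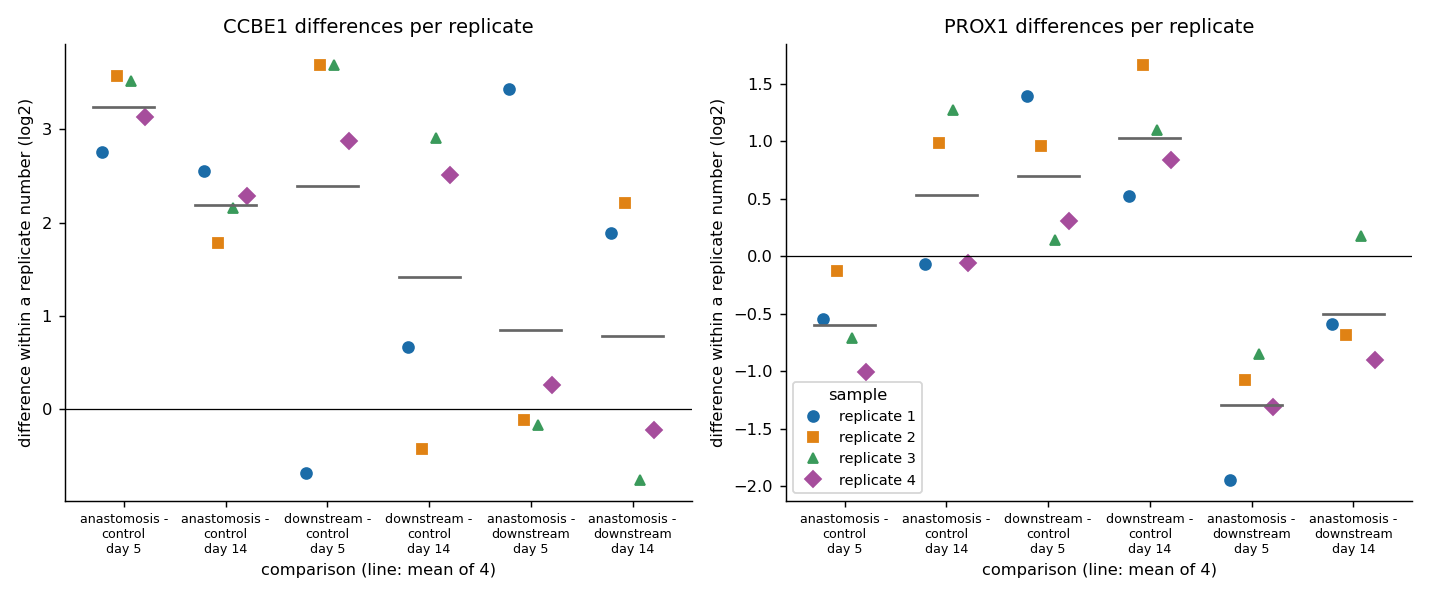
Difference in CCBE1 and PROX1 level (log2) between sites within each replicate number, by comparison and day. Points are replicates 1 to 4 and lines their mean; for CCBE1 all 8 differences of anastomosis minus control lie above 0, and for PROX1 all 8 of downstream minus control do.

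Between the days PROX1 at the anastomosis went from 6.64 ± 0.22 to 8.05 ± 0.57 (SD, n = 4), a difference of 1.41 ± 0.27 with no overlap of the days that missed the threshold (limma adjusted p = 0.243). It passed with the authors' value table (2.32, adjusted p = 0.00888) and with the slide as a random block (1.37, adjusted p = 0.0346). Over all features these called 3060 of 33293 and 52 of 33390, against 2 in the fit reported. On the slide of replicate 4 that held both days the PROX1 difference was 1.12. The downstream vein differed by 0.62 ± 0.21 and the control by 0.28 ± 0.21 (adjusted p = 1.00 for both). The change of anastomosis minus control between days was 1.13 ± 0.35 (adjusted p = 0.416). For the downstream vein against the control it was 0.33 ± 0.35 (adjusted p = 0.846), and for the anastomosis against the downstream vein 0.80 ± 0.35 (adjusted p = 0.984). A further probe, described only by a partial match to a fish Prospero-related protein and not named PROX1, was not counted as a member. It too passed no threshold: it differed by 0.69 ± 0.15 in the downstream vein at day 14 (limma adjusted p = 0.0516) and by -0.63 ± 0.15 between the anastomosis and the downstream vein at day 5 (adjusted p = 0.424).

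By mean level PROX1 ran from the downstream vein at day 14 (8.55 ± 0.16, SD), through the anastomosis at day 14 (8.05 ± 0.57), the downstream vein at day 5 (7.93 ± 0.41), the control at day 14 (7.52 ± 0.36) and the control at day 5 (7.23 ± 0.25), to the anastomosis at day 5 (6.64 ± 0.22). Each neighbouring pair overlapped except the last. The highest group of CCBE1 was thus the lowest of PROX1. Over the 24 samples the levels of both genes had a Pearson r of -0.07 after the mean of each replicate number and day was removed, a description of samples that share arrays.

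The other genes of the lymphatic growth pathway were taken from a list of 50, of which 26 were measured. At the anastomosis 7 rose and 0 fell at day 5, and 8 rose and 0 fell at day 14. In the downstream vein 5 rose and 0 fell at day 5, and 3 rose and 0 fell at day 14. Of all 33390 features, 9.05%, 4.76%, 3.2% and 0.638% were called higher in these comparisons, and 10.3%, 4.02%, 5.01% and 0.276% lower. The pathway's median differences were 0.21, 0.45, 0.22 and 0.44, beside 0.00 to 0.01 over all features. These counts depend on the fit: with no replicate block they were 4, 3, 2 and 0, and without replicate 4 they were 4, 0, 0 and 0. Over all features the fit with no block called 2289, 550, 328 and 11. That without replicate 4 called 2405, 138, 2 and 4, against 6454, 2933, 2743 and 305 in the fit reported. Without replicate 3 the pathway counts were 5, 4, 0 and 0, with 3806, 1640, 6 and 25 called over all features. Without replicate 1 or replicate 2 the downstream pathway count at day 14 was 1, with 151 and 343 called over all features. The anastomosis count at day 14 was 5 without replicate 1, and also 5 without the day 14 control of replicate 2. Over all features these fits called 1692 and 3476 there.

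Among ligands and their processing, VEGFC, the growth factor that CCBE1 helps to activate, rose at the anastomosis by 1.26 ± 0.20 at day 5 and 1.16 ± 0.20 at day 14 (limma adjusted p = 0.00121 and 0.00554). In the downstream vein it rose by 0.97 ± 0.20 at day 5 (adjusted p = 0.0145) and differed by 0.89 ± 0.20 at day 14 (adjusted p = 0.0570). ADAMTS14, a protease of the same family as ADAMTS3, rose at the anastomosis by 1.41 ± 0.32 and 1.29 ± 0.32 on these days. Its relative ADAMTS2 differed by -0.24 ± 0.15 and -0.10 ± 0.15, neither called. VEGFD, the other lymphatic growth factor, stayed between 6.08 and 6.39 and was well above background in 9 of 24 samples. ANGPT2, a ligand of the receptor TEK that takes part in vessel remodelling, rose in all 4 comparisons with the control, by 0.83 to 1.67.

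Of the receptors, KDR, which binds VEGFA and processed VEGFC, rose at the anastomosis by 2.13 ± 0.33 and 1.68 ± 0.33 and downstream by 1.70 ± 0.33 and 1.72 ± 0.33 at days 5 and 14. The co-receptor NRP1 rose at the anastomosis at day 5 (0.61 ± 0.20) and NRP2, the co-receptor for VEGFC, at day 14 (0.46 ± 0.13). TEK differed by 0.28 to 0.92 and was called in none. FLT4 and ADAMTS3 were not analysed here.

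Of the transcription factors that act with or upstream of PROX1, SOX18, which switches PROX1 on in the embryonic vein, rose at the anastomosis by 1.196 ± 0.20 at day 5 and 1.27 ± 0.20 at day 14 and downstream at day 5 by 0.74 ± 0.20. NR2F2, the venous factor that binds PROX1, differed by 0.01 to 0.38 and GATA2 by -0.13 to 0.40, with no call. NFATC1, a factor of valve formation, rose at the anastomosis at day 14 (1.69 ± 0.49, limma adjusted p = 0.0461). Its other differences from the control, 0.44 to 0.95, were not called, and neither was that between the anastomosis and the downstream vein at day 14 (0.96 ± 0.49, adjusted p = 0.395). GJA4, a connexin of arterial and lymphatic valve endothelium, rose in all 4, by 0.77 to 1.03.

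**Figure D4:**
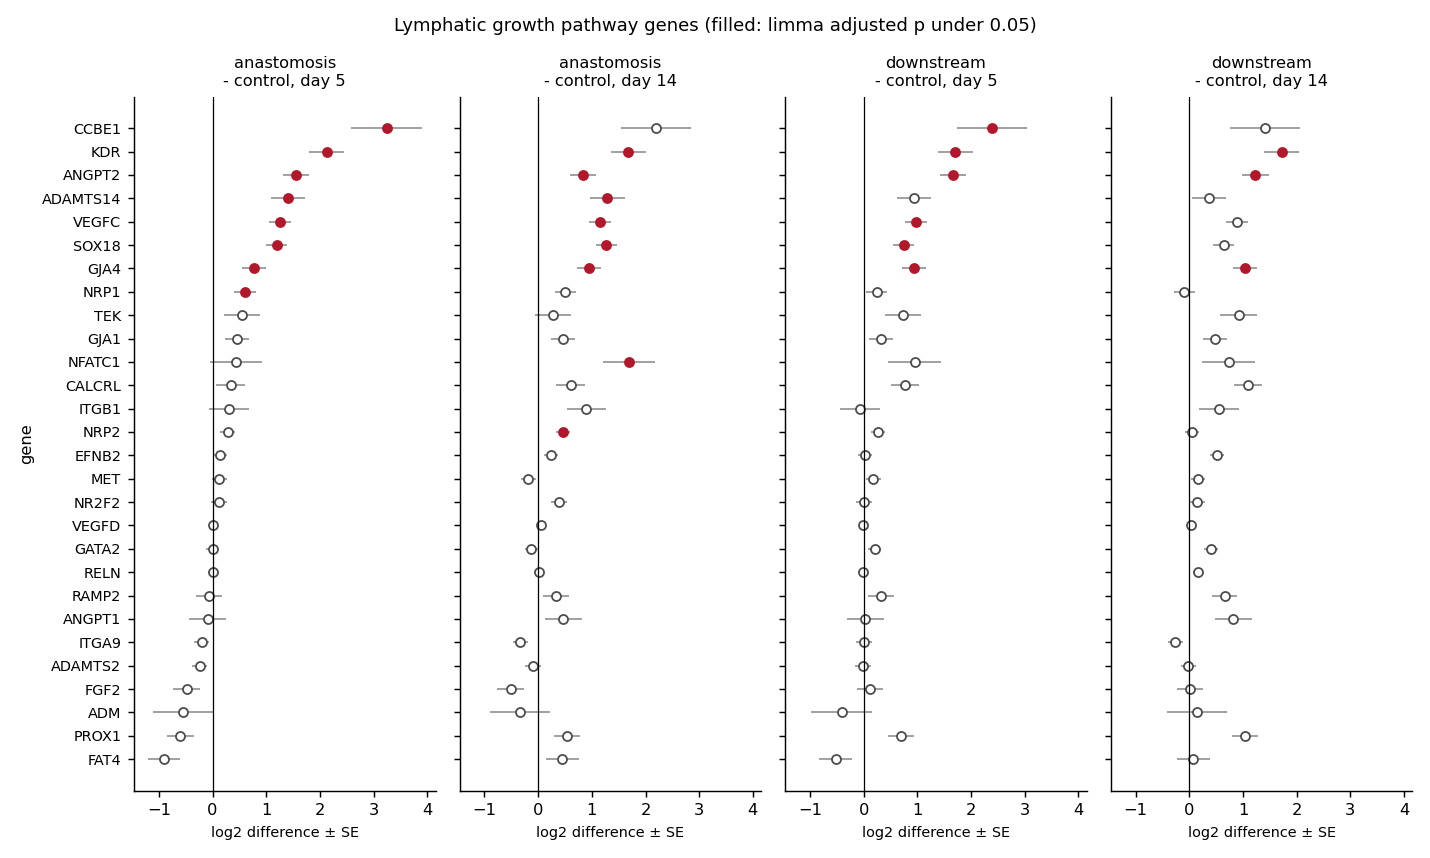
Difference from the control (log2 ± SE) of PROX1, CCBE1 and the 26 other measured genes of the lymphatic growth list, by site and day. Filled points passed the limma threshold and open points did not; the 3 genes filled in every panel are KDR, ANGPT2 and GJA4.

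Of 16 other markers of lymphatic endothelium, 8 were measured, and LYVE1, PDPN, MMRN1 and STAB2 were not analysed here. The label of a lymphatic gene pair can therefore be set only against the few that were. At the anastomosis 1 of 8 rose at day 5 and 3 rose at day 14, with 0 falling. In the downstream vein 1 rose and 1 fell at day 5, and 1 rose and 0 fell at day 14. The marker that rose in all 4 comparisons with the control was ANGPT2, which is also counted in the pathway above. A single marker of 8 at the anastomosis at day 5 is near the 9.05% of all features called higher there. CCL21, the chemokine of lymphatic endothelium and lymph nodes, rose at the anastomosis at day 14, from 6.80 ± 0.19 in the control to 9.94 ± 1.01 (SD, n = 4), by 3.13 ± 0.70 (limma adjusted p = 0.0162). At day 5 it differed there by -0.18 ± 0.70. THY1, which fibroblasts also carry, rose at the anastomosis at day 14 (1.12 ± 0.32), and SEMA3D fell in the downstream vein at day 5 (-0.89 ± 0.25). ITGA9 and RELN differed by -0.33 to 0.16 and CD36 by -2.01 to 1.34, with no call. NTS passed the background flag in 0 of the 8 control samples and in 3 of 4 at the anastomosis on each day. Downstream it passed in 3 of 4 at day 5 and 1 of 4 at day 14. Its differences from the control, -0.03 to 0.72, were not called.

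Markers of other cell types give the background of the tissue. The mean level of 12 blood endothelial markers lay at 11.15 to 12.20 in the control samples, 11.66 to 12.26 at the anastomosis and 11.90 to 12.98 in the downstream vein. That of 14 skeletal muscle markers was 6.94 to 7.59, 6.83 to 7.15 and 6.77 to 7.53, and that of 11 lymphocyte and lymph node markers 7.53 to 9.31, 8.02 to 9.29 and 7.99 to 9.70. Blood endothelial markers that rose numbered 3 and 2 at the anastomosis at days 5 and 14, and 3 and 1 downstream, with 0 falling. KDR, also in the pathway list, was among them each time. Skeletal muscle markers fell only at the anastomosis, 2 on each day, and 1 lymphocyte marker, CCL21, rose there at day 14. No other skeletal muscle or lymphocyte gene was called against the control. Contractile smooth muscle, cell cycle and macrophage genes also differed from the control at day 5, when CCBE1 rose at both sites. At the anastomosis at day 5, 9 of 11 contractile genes fell (median difference -2.20), 8 of 9 cell cycle genes rose (2.46) and 3 of 7 macrophage markers rose (0.55). In the downstream vein at day 5, 5 contractile genes fell (-2.18), 7 cell cycle genes rose (1.52) and 2 macrophage markers rose (0.25). At day 14, 3 macrophage markers rose at the anastomosis (0.92), and no other contractile, cell cycle or macrophage gene was called at either site. The contractile medians at day 14 were -1.33 at the anastomosis and -1.11 downstream, and the cell cycle medians 0.51 and -0.06. The day 14 control of replicate 2 had a contractile mean of 11.86, against 14.23 to 15.28 in the other day 14 controls. Of all features, 9.05% were called higher and 10.3% lower at the anastomosis at day 5, and 4.76% and 4.02% at day 14. Downstream these shares were 3.2% and 5.01% at day 5, and 0.638% and 0.276% at day 14. The mean macrophage level was 10.57 to 11.43 in the control samples, 11.66 to 12.48 at the anastomosis and 10.41 to 12.27 in the downstream vein. The part of these lists in the levels of the members was not tested.

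Among 5539 symbols compared over the 24 samples, the genes most like CCBE1 by Pearson r, after the mean of each replicate number and day was removed, were CHFR (0.98), ALDH2 (0.95), DRAM2 (0.95), TTYH2 (0.95) and NCBP2 (0.94). The mitotic checkpoint gene CHFR had a much smaller difference, with 0.59 ± 0.12 at the anastomosis at day 5. For PROX1 they were MYL2 (0.79), CCDC173 (0.78), CPEB1 (0.78), SCG3 (0.77) and KRT2 (0.76). MYL2 is a myosin light chain of heart and slow skeletal muscle. The samples share arrays and slides, and these values are descriptions.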

How the data were processed

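The authors deposited Agilent Feature Extraction 10.5.1.1 scanner files with linear intensity values (spot mean and local background, not normalised, and processed signals), per the file headers, and a table of log2 values. No source used here says how the authors made that log2 table. Its column medians were 7.34 to 7.42, and its centring is unknown. Its anastomosis minus control differences correlated with those used here at 0.94 to 0.96 in replicates 1 to 3. In replicate 4 the correlation was 0.72 at day 5 and 0.65 at day 14. Here each channel was corrected with normexp (offset 50), normalised by loess within arrays and Aquantile between arrays in limma 3.58.1 (R 4.3.3), and each sample was read in its own channel. The green channel of 8 arrays had no sample in the labels and was used only in normalisation. Features well above background in at least 4 samples were tested, with the brightest probe of a symbol. For sites, lmFit and eBayes used all samples and a block per replicate number within a day (12 residual degrees of freedom), while days within a site had no block. The block follows the arrays that control and anastomosis samples share. Downstream samples lay on other arrays and were placed in a block by replicate number. Deviations of samples of a number and day correlated at 0.22 to 0.82 on an array (8 pairs) and 0.19 to 0.76 otherwise (16 pairs). P-values are two-sided, with Benjamini-Hochberg adjustment over the 33390 features. The fit was tested on simulated data. The precision is limited by 4 arrays per group.

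Named are both members, measured genes of the lymphatic lists, and the 5 symbols most like each member among those well above background in at least 12 samples. VEGFC, VEGFD, NR2F2, ITGA9, NRP2, ADAMTS14, FAT4, SEMA3D, RELN and NTS were named from the protein in the probe description. A further listed gene is not reported here. The members and lists were chosen with earlier results of these data known. The alternatives changed the block, samples, background correction, scaling, filter or value table.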

Additional observations from a re-analysis of the deposited data

Results flagged for a closer look

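The CCBE1 level of the downstream vein at day 5 in replicate 1 was 8.59, far below the other 3 samples of its group, with a gap of 0.901 of the group's range, above Dixon's critical value at 95%. It was the only sample flagged in 12 member groups, and chance flags about 1 group in 20.

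PROX1 at day 5 lay below the control in all 4 pairs at the anastomosis (-0.60) and above it in all 4 pairs in the downstream vein (0.70). The difference between both sites, tested directly with limma, was -1.30 with an adjusted p of 0.424.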

How the results depend on the processing

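No alternative turned the sign of a member's difference from the control within a day, and CCBE1 at the anastomosis at day 5 kept its call in 15 of 16. The values below changed a call or, for small uncalled differences, the sign, and the cause was not tested. List counts are given for the anastomosis at day 5 and 14 and then downstream at day 5 and 14, all in comparison with the control; the counts of the fit reported are 7, 8, 5 and 3 for pathway genes and 1, 3, 2 and 1 for lymphatic endothelial markers in either direction.

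With no replicate block, downstream CCBE1 at day 5 (2.39) was not called, and the counts were 4, 3, 2 and 0 for the pathway and 1, 1, 1 and 0 for markers, with 2289, 550, 328 and 11 called over all features. With a replicate block across days, added after seeing the data, the CCBE1 fall at the anastomosis (-1.57) was not called. Fitted on the samples compared with a replicate block, PROX1 at the anastomosis at day 5 (-0.60) and CCBE1 there at day 14 (2.19) were called. Downstream CCBE1 at day 5 (2.39) was not. Pathway counts were 11, 0, 6 and 0 and marker counts 4, 0, 2 and 0. Over all features 9319, 57, 3371 and 0 were called.

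With processed signals PROX1 at the anastomosis at day 5 was called (-1.27), CCBE1 downstream at day 5 (2.46) and the anastomosis day difference (-1.61) were not, and its change between days of anastomosis minus downstream was 0.010; counts were 5, 7, 3 and 1, and 2, 1, 2 and 0, and the median of all features shifted by -0.16 and -0.19 downstream. With no background correction, CCBE1 at the anastomosis at day 14 was called (2.37) and its day difference was not (-1.60), with 3 markers at the anastomosis at day 5. With median centring CCBE1 was called at day 14 at the anastomosis (2.76) and downstream (1.86), PROX1 at the anastomosis at day 14 (0.88) and downstream at day 5 (0.85) and day 14 (1.38), and the CCBE1 day difference was not (-1.59); counts were 13, 16, 13 and 15, and 2, 3, 2 and 3, and over all features 10968, 13717, 8615 and 10133 were called in place of 6454, 2933, 2743 and 305. With single-channel quantiles CCBE1 at the anastomosis at day 14 was called (2.21) and its day difference was not (-1.52), with 3 markers at the anastomosis at day 5. Features well above background in at least 12 samples gave 2.19 (called) and -1.57 (not called) for these, and no filter gave 5 pathway genes and 1 marker at the anastomosis at day 14. Over all features no filter called 2669 of 40680 there. At the anastomosis at day 5, no background correction called 7308 and single-channel quantiles 7418. Processed signals called 4451, 1704, 2793 and 170 in the comparisons with the control.

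With the slide as a random block, calls were added for CCBE1 at the anastomosis at day 14 (2.19), PROX1 downstream at day 5 (0.70) and day 14 (1.03) and the PROX1 day difference at the anastomosis (1.37), the CCBE1 day difference lost its call (-1.65), and 2 markers were called at the anastomosis at day 5. The authors' value table added calls for CCBE1 at the anastomosis at day 14 (2.47) and the PROX1 day difference (2.32). It gave 0.53 for the CCBE1 change of anastomosis minus downstream. With it 6 pathway genes were called downstream at day 14, and 3 and 4 markers at day 5 at the anastomosis and downstream. Over all features it called 584 downstream at day 14, and 8528 and 6588 at day 5. The slide block called 6521 at the anastomosis at day 5.

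In replicates 1 and 2 alone CCBE1 at day 5 (3.16 and downstream 1.502) and its day difference (-1.41) were not called. Its change of anastomosis minus downstream was 0.39, and that of PROX1 downstream minus control was -0.081. All 8 list counts were 0, but over all features only 2, 1, 0 and 0 were called in these comparisons. In replicates 3 and 4 alone CCBE1 was called at day 14 at the anastomosis (2.22) and downstream (2.71). Its day difference was not (-1.73), and anastomosis minus downstream at day 14 was -0.49. At the anastomosis 4 pathway genes and 2 markers were called at day 5, and 5 pathway genes at day 14. Downstream 2 markers were called at day 14. Over all features that fit called 3963, 3265, 3352 and 1805.

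Leaving out 1 replicate number or 1 of 3 libraries (chosen after seeing the data), CCBE1 ran from 2.07 to 2.57 at the anastomosis at day 14, 1.96 to 3.42 downstream at day 5, -0.091 to 1.19 for anastomosis minus downstream at day 5, -1.92 to 0.067 and -0.87 to 0.87 for the changes between days of downstream minus control and anastomosis minus downstream, and -1.70 to -1.48 for the day difference. Pathway counts ran from 4 to 6, 0 to 9, 0 to 5 and 0 to 4, and marker counts from 1 to 2, 0 to 3, 0 to 3 and 0 to 1. Over all features, leaving out 1 replicate number gave 2405 to 5132, 138 to 3058, 2 to 4438 and 4 to 343 calls. Other probes named for the members could not be tried, since each gene has 1. The PROX1 spot, at 1.504 to 10.7 times background, limits how small a difference can be read.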
